A study of Mus musculus with 6 samples.

Results

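Skin of mice given bleomycin and treated with EHP-101 was compared with skin of mice given bleomycin and treated with ajulemic acid. The members were chosen by treatment label and count column, and were 4 of the 6 libraries of the series: 1 with EHP-101 (replicate 3) and 3 with ajulemic acid (replicates 1, 2 and 3). The other 2 libraries, 1 of control skin and 1 of skin given bleomycin alone, served as reference levels only. All animals were female BALB/c mice aged 6 to 8 weeks, and both treated groups and the bleomycin library had received bleomycin, while the control library had not. The labels give no dose, route or duration for bleomycin or for either compound, so it is not known whether the doses and times of the compounds matched. They also do not say whether each ajulemic acid library is from its own animal. Every p-value here reflects the scatter of these libraries alone, and that scatter may be technical.

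Bleomycin is a DNA-damaging antibiotic that, given into mouse skin, leads to thickened, collagen-rich dermis with loss of the fat layer, a model of scleroderma. EHP-101 is an oral formulation of VCE-004.8, an aminoquinone made from the plant cannabinoid cannabidiol, and ajulemic acid is a synthetic carboxylic acid cannabinoid, an analogue of an acid metabolite of tetrahydrocannabinol with a longer, branched side chain. Both are described as ligands of PPAR gamma, the nuclear receptor that switches on the fat cell programme and restrains collagen production by fibroblasts, and of CB2, the cannabinoid receptor of immune cells, and VCE-004.8 is also described as stabilising HIF, the transcription factor of the response to low oxygen. The comparison asks where the skin transcriptome differed between these 2 cannabinoids.

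The libraries held between 14291592 and 19837682 counts. Keratins of basal (Krt5, Krt14) and differentiating (Krt10) epidermis and the dermal collagens Col1a1 and Col3a1 were each at 704 CPM (counts scaled to the library's total) or above in all 6, so all held skin. Before the differences are read, 3 features of the libraries matter. First, the hair shaft and anagen follicle list was low in ajulemic acid replicate 2, with a median centred log2 CPM (log2 CPM with the gene's mean over the 6 libraries subtracted) of -2.67, near the bleomycin library at -2.56, while it was 0.69 in EHP-101, 1.04 in ajulemic acid replicate 1 and 2.19 in replicate 3. Second, the mitochondrial ribosomal RNA share of counts was 26.1% in ajulemic acid replicate 2, 17.3 and 18.5% in replicates 1 and 3 and 17.9% in EHP-101. It was 26.5% in control and 19.7% in bleomycin. Last, transcripts of liver were far lower in all 3 ajulemic acid libraries than in the other 3, as described next. In bulk tissue, fewer cells of a type and less RNA per cell cannot be told apart.

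Of the lists examined, the one with the highest median difference between EHP-101 and ajulemic acid was that of hepatocytes, a cell type that skin does not hold. Alb, which encodes serum albumin (gene 11657, chromosome 5, 90460889 to 90476603, build mm10), stood at 455 CPM in EHP-101 and at 5.59, 12.6 and 1.75 CPM in the ajulemic acid libraries, with 678 in control and 477 in bleomycin. The 3 ajulemic acid libraries were thus the low ones, and the EHP-101 library was close to bleomycin alone. The fitted log2 fold change of EHP-101 over ajulemic acid was 6.10 (SE 1.01). Apob, the apolipoprotein of liver lipoproteins, was at 87.2 CPM in EHP-101 and 3.46 ± 2.32 (SD, n = 3) in ajulemic acid, with 180 in control and 84.7 in bleomycin. Its log2 fold change was 4.66 (SE 0.66). The smallest p values of the list belonged to Itih4, an inter-alpha-trypsin inhibitor chain (12.8 CPM in EHP-101 against 0.487 ± 0.0775, SD, n = 3), and Apoh, a plasma glycoprotein that binds phospholipids (7.87 CPM against 0.198 ± 0.0656, SD, n = 3). Their adjusted p by edgeR's quasi-likelihood test with Benjamini-Hochberg adjustment was 0.152, the smallest among all genes tested.

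Of 47 hepatocyte genes tested out of 48 listed, 45 had a log2 fold change above 0, beside 45.5% of all 17377 genes tested, and the list's median was 3.86 beside -0.02 over all genes. The EHP-101 library lay above all 3 ajulemic acid libraries for 43 of them, beside 18.3% of all genes tested. In 45 of the 47, however, control and bleomycin also lay above all 3 ajulemic acid libraries, which held for 7.75% of all genes. The members that were closest between the compounds include ones that fat also makes. The haemoglobin-binding protein Hp was at 638 CPM in EHP-101 and at 430.5, 366 and 309 in ajulemic acid, and the iron carrier Trf was at 275 CPM in EHP-101 and at 151, 159 and 108. Cyp2e1, a liver and fat monooxygenase, was at 84.1 CPM in EHP-101, inside the ajulemic acid range of 18.9 to 114. Where these transcripts came from was not tested.

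No gene passed an adjusted p of 0.05 in the main test (edgeR, quasi-likelihood), in either direction: 0% of the 17377 genes were called higher in EHP-101 and 0% lower. At an unadjusted p under 0.05, 343 genes (1.97%) had a higher level and 69 (0.397%) a lower one. Of the 343, 40 were on the hepatocyte list. Control and bleomycin also lay above all 3 ajulemic acid libraries for 219 (63.8%) of the 343, beside 7.75% of all genes tested. The choice by p against the same ajulemic acid libraries favours this. DESeq2 called 63 genes higher and 1 lower. The 1 called lower was Sprr1b. Of the 63, 26 were on the hepatocyte list. Both control and bleomycin were at over 2 times the highest ajulemic acid library for 59 of the 63, beside 1.44% of all genes tested. The other 4, named after their values were seen, were Slc1a2, Nnat, Cyp2c39 and Lep. limma called 0 genes in either direction, and its unadjusted p was under 0.05 for 326 higher and 87 lower genes. With 1 library against 3, a permutation of the labels cannot give a p below 0.25, so none was used.

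**Figure D1:**
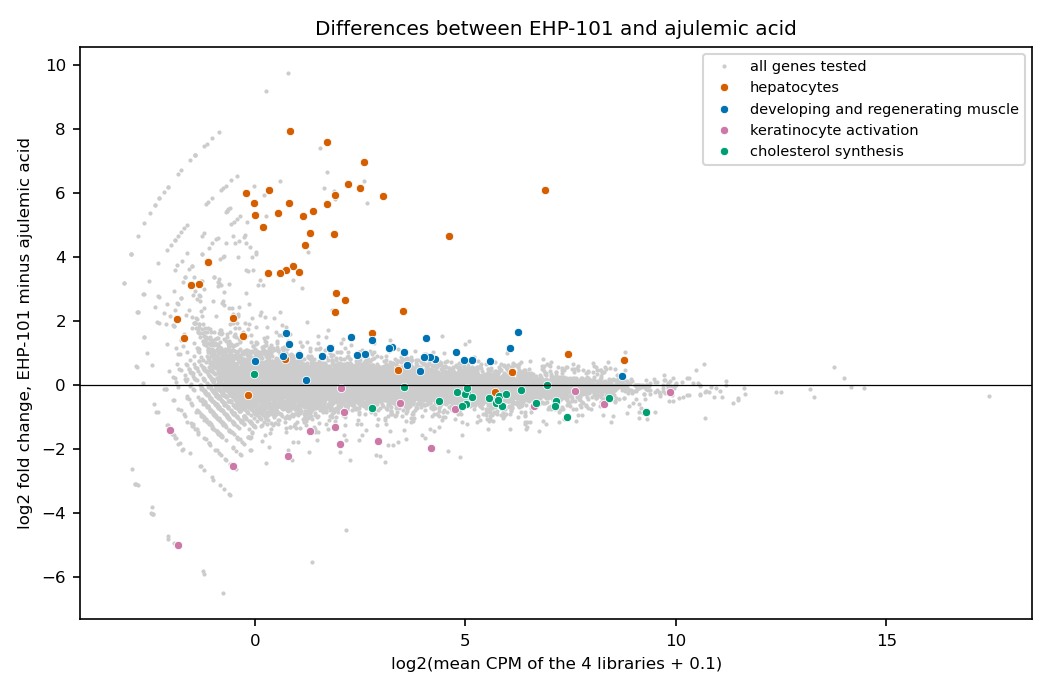
Log2 fold change of EHP-101 over ajulemic acid (vertical axis) against log2 of the mean CPM of the 4 libraries plus 0.1 (horizontal axis) for the 17377 genes tested, 1 point per gene. Hepatocyte genes lie highest (median 3.86), genes of developing and regenerating muscle lie above 0 (median 0.94), and keratinocyte activation and cholesterol synthesis genes lie mostly below 0 (medians -1.31 and -0.41).

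Among genes whose log2 CPM averaged 2 or more over the 4 libraries, the smallest p belonged to Nnat, the imprinted gene of neuronatin, a small membrane protein of brain and fat (gene 18111, chromosome 2, 157560110 to 157562522). It was at 42.4 CPM in EHP-101 and at 14.7, 12.9 and 16.5 CPM in ajulemic acid, with 29.7 in control and 8.60 in bleomycin. The ajulemic acid values sat close together and well under EHP-101, with a log2 fold change of 1.53 (SE 0.20) and an edgeR adjusted p of 0.309. DESeq2's adjusted p was 0.00219. Lep, the gene of the fat hormone leptin (gene 16846, chromosome 6, 29060221 to 29073876), was at 62.9 CPM in EHP-101 and at 28.5, 23.7 and 20.7 in ajulemic acid. Control skin was near the EHP-101 level, at 65.9 CPM, and bleomycin skin near the ajulemic acid level, at 21.0. The log2 fold change of Lep was 1.37 (SE 0.22), with an adjusted p of 0.426 by edgeR and 0.0115 by DESeq2.

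Other white adipocyte genes had smaller differences in the same direction. Pck1, the enzyme that makes glycerol for triglyceride storage in fat cells, was at 102 CPM in EHP-101 and at 62.0, 48.0 and 41.5 in ajulemic acid, with 172 in control and 46.1 in bleomycin. The fatty acid carrier Fabp4 was at 449 CPM in EHP-101 and at 290, 346 and 289 in ajulemic acid, with 848 in control and 214 in bleomycin. Its log2 fold change was 0.54 (SE 0.19). The hormone Adipoq was at 173 CPM in EHP-101 and at 122, 136 and 76.1, with 265 in control and 86.6 in bleomycin. For these genes the EHP-101 library was above each ajulemic acid library but below control. Pparg itself, at 24.2 CPM in EHP-101, was within the ajulemic acid range of 14.1 to 26.0, and the 95% interval of its log2 fold change ran from -0.63 to 1.29.

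Of 26 white adipocyte genes, 20 were above 0 in log2 fold change (median 0.47), 4 at an unadjusted p under 0.05, and 17 lay above all 3 ajulemic acid libraries. Over all genes tested these shares were 45.5%, 1.97% and 18.3%. Fasn, the fatty acid synthase, lay the other way, at 693 CPM in EHP-101 and at 921, 1273 and 772 in ajulemic acid. The list's level was lowest in ajulemic acid replicate 3 (median centred log2 CPM -0.71, beside -0.16 and 0.02 in replicates 1 and 2 and 0.21 in EHP-101), and without that replicate the median was 0.29. Of 31 PPAR targets, 21 had a positive log2 fold change, with a median of 0.21 that was 0.40 without replicate 2 and 0.09 without replicate 3. Among them Cd36, the fatty acid transporter, was at 281 CPM in EHP-101 and at 199, 261 and 143 in ajulemic acid, and Lpl, the lipoprotein lipase, at 235 CPM and at 177, 202 and 120. Angptl4 (95% interval -0.69 to 1.21) and Pdk4 (-0.96 to 2.21), both PPAR-induced genes of fat use, could not be separated between the compounds. The epidermal fatty acid carrier Fabp5 lay the other way, at 18.3 CPM in EHP-101 and 27.6, 29.1 and 39.1 in ajulemic acid.

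**Figure D2:**
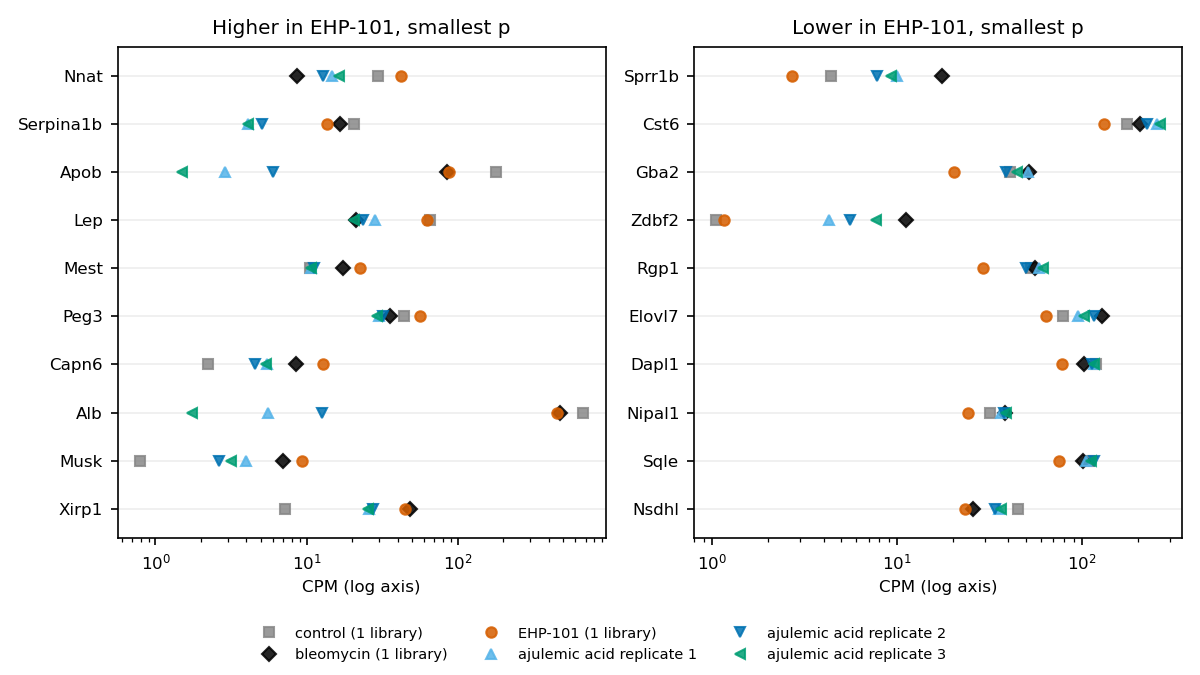
CPM on a log axis in each of the 6 libraries for the 10 genes of smallest p higher in EHP-101 (left) and the 10 lower (right) among genes whose log2 CPM averaged 2 or more, 1 marker per library. In every gene on the left the EHP-101 library lies above the 3 ajulemic acid libraries, and in every gene on the right below them, which the choice by p favours. Alb, Apob and Serpina1b also have control and bleomycin far to the right of ajulemic acid.

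Genes of activated epidermis were lower in EHP-101. Sprr1b, a small proline-rich protein cross-linked into the cornified envelope and induced when keratinocytes are stressed (gene 20754, chromosome 3, 92436809 to 92438779), was at 2.68 CPM in EHP-101 and at 10.02, 7.74 and 9.28 CPM in ajulemic acid. Bleomycin skin had 17.4 CPM and control skin 4.40, so EHP-101 lay below control and ajulemic acid between control and bleomycin. The log2 fold change was -1.74 (SE 0.30), with an adjusted p of 0.558 by edgeR and 0.0497 by DESeq2. Krt16, a keratin of wounded and hyperproliferative epidermis, was at 17.9 CPM in EHP-101 and at 31.2, 33.0 and 25.4 in ajulemic acid, with 21.3 in control and 99.3 in bleomycin. Cst6, a cysteine protease inhibitor of the upper epidermis, was at 131 CPM in EHP-101 and at 254, 225 and 263 in ajulemic acid, with 176 in control and 206 in bleomycin. For each of these 3 genes EHP-101 was the lowest of the 6 libraries.

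All 17 tested genes of the keratinocyte activation list, of 20 listed, had a negative log2 fold change, beside 54.5% of all genes. Of them, 5 were lower at an unadjusted p under 0.05, beside 0.397% of all genes. Below all 3 ajulemic acid libraries lay 10, beside 19.8% of all genes. The median was -1.31. It rests partly on low genes: Lce3b had 0 counts in EHP-101 and 5, 4 and 3 in ajulemic acid, and with Lce3b set to the bound that 3 counts in the EHP-101 library give, the median was -0.85. The abundant members were close or variable. Krt17 was at 826 CPM in EHP-101, inside the ajulemic acid range of 515 to 1356. Krt6a was at 179 CPM, inside the range of 146 to 234. Sprr1a was at 228 CPM, inside the range of 80.0 to 632, and these wide ranges followed the order of the hair list in the 3 ajulemic acid libraries. The neutrophil and keratinocyte alarmin S100a8 was at 3.84 CPM in EHP-101 and at 3.68 to 4.34 in ajulemic acid.

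The cornified layer showed the same direction with more spread. Ivl, which encodes involucrin, the scaffold of the cornified envelope, was at 68.8 CPM in EHP-101 and at 112, 95.5 and 120 in ajulemic acid, with 96.6 in control and 113 in bleomycin. Rptn, a repetin of the cornified cell, was at 15.9 CPM in EHP-101 and at 25.6, 45.0 and 35.1, with 33.0 in control and 249 in bleomycin. The desquamation protease Klk7 was at 162 CPM in EHP-101 and at 249, 221 and 236, and the desmosomal cadherin Dsc1 at 409 CPM and at 641, 613 and 584. Of 26 differentiated keratinocyte genes, 25 had a negative log2 fold change (median -0.53) and 8 lay below all 3 ajulemic acid libraries, beside 54.5% and 19.8% of all genes tested. The main structural keratins did not separate, since ajulemic acid replicate 3 was as low as EHP-101: Krt10 was at 1945 CPM in EHP-101 and at 3499, 3613 and 1494, and Krt1 at 934 CPM and at 2435, 2293 and 947. The 13 basal keratinocyte genes had a median of 0.00, and Krt5 was at 1885 CPM in EHP-101 and 2007 ± 258 (SD, n = 3) in ajulemic acid, with a 95% interval of the log2 fold change from -0.72 to 0.54.

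**Figure D3:**
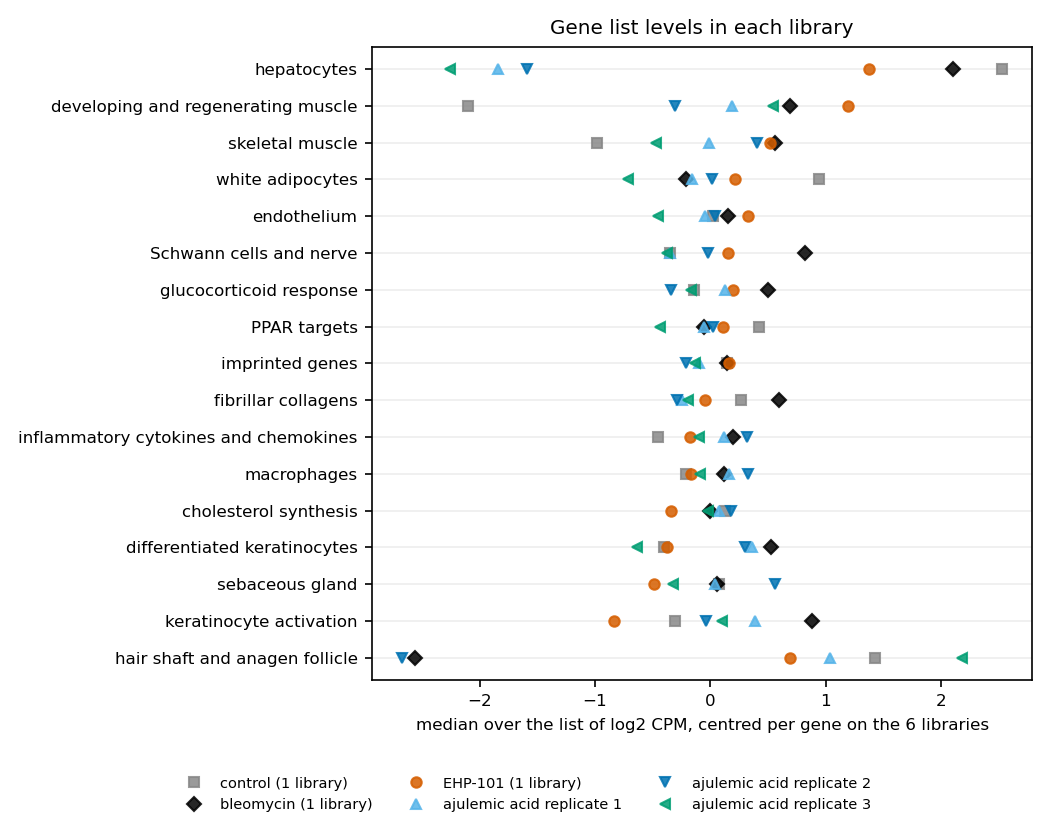
Median centred log2 CPM of 17 gene lists (horizontal axis) in each of the 6 libraries, 1 marker per library. The 3 ajulemic acid libraries lie between -2.26 and -1.59 for hepatocyte genes, below all others, EHP-101 is the lowest library for keratinocyte activation (-0.83) and cholesterol synthesis (-0.34), and ajulemic acid replicate 2 sits with bleomycin for hair genes.

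Genes of cholesterol synthesis were lower in EHP-101 than in every ajulemic acid library with few exceptions. Cells make cholesterol from acetyl-CoA through mevalonate, squalene and lanosterol, and SREBP2, encoded by Srebf2, switches these enzymes on together when sterols are scarce, with the help of the CCAAT-binding factor NF-Y. In skin, cholesterol is a part of the barrier lipids and of sebum. Promoter windows from RefSeq (GRCm38.p6, the 250 bases before the annotated start) were read for 17 of the 25 listed genes and are shown for one gene at the start of the pathway, Hmgcs1 (chr13:119690101-119690350, plus strand), and one of its last steps, Nsdhl (chrX:72918271-72918520, plus strand), because the Hmgcs1 window holds both motifs searched and the Nsdhl window CCAAT without the sterol core. Capitals mark CCAAT on either strand (ATTGG on the strand printed) and, in Hmgcs1, CACCCCA, a core of the sterol regulatory element, whose reverse is TGGGGTG.
Hmgcs1: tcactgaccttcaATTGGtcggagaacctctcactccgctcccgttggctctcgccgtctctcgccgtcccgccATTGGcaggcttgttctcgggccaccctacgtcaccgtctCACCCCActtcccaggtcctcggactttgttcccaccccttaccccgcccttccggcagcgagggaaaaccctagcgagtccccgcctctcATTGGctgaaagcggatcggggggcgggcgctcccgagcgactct
Nsdhl: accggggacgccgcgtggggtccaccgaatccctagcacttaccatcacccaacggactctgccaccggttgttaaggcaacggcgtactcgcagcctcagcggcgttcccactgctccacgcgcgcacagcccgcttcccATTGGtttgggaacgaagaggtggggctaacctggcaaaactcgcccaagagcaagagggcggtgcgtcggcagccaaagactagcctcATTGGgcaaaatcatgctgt
CCAAT was found on either strand in 14 of the 17 windows and in 35.5% of 13021 promoter windows of the same length, and CACCCCA in 3 of the 17 and in 7.09% of all windows. The motifs do not overlap each other, and a match is a description of letters, not a bound site.

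Hmgcs1, which makes the precursor of mevalonate, was at 273 CPM in EHP-101 and at 353, 415 and 317 in ajulemic acid, with 315 in control and 343 in bleomycin. Sqle, the squalene epoxidase (gene 20775, chromosome 15, 59315092 to 59331193), was at 74.9 CPM in EHP-101 and at 105, 115 and 112, with 109 in control and 102 in bleomycin. In both genes EHP-101 was the lowest library.

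Among the steps after squalene, Nsdhl (gene 18194, chromosome X, 72918521 to 72958528) was at 23.3 CPM in EHP-101 and at 35.7, 33.7 and 36.3 in ajulemic acid, with 45.0 in control and 25.8 in bleomycin. Lss, which closes squalene epoxide into the ring system of lanosterol, was at 38.9 CPM in EHP-101 and at 54.9, 64.8 and 52.5 in ajulemic acid, with 67.2 in control and 45.6 in bleomycin. Of 25 genes, 23 had a negative log2 fold change (median -0.41), 6 at an unadjusted p under 0.05, and 21 lay below all 3 ajulemic acid libraries. Over all genes tested these shares were 54.5%, 0.397% and 19.8%. The regulator Srebf2 was level, at 123 CPM in EHP-101 and 123 ± 12.3 (SD, n = 3) in ajulemic acid, with a 95% interval from -0.47 to 0.48. No gene of the list passed edgeR's test after adjustment over all genes, and the list was drawn up after the data were seen.

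**Figure D4:**
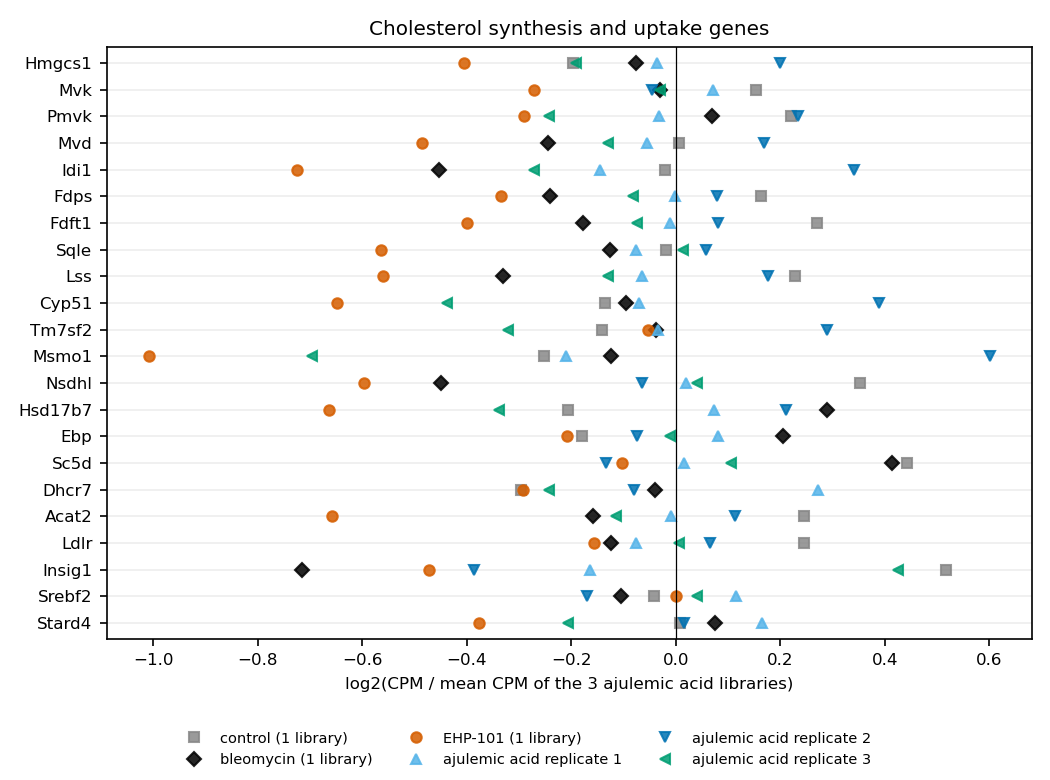
Level of each of 22 cholesterol synthesis and uptake genes in the 6 libraries, as log2 of CPM over the mean CPM of the 3 ajulemic acid libraries (horizontal axis, 0 is that mean). EHP-101 lies to the left of all 3 ajulemic acid libraries in 19 of the 22 genes, while Srebf2 is level.

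Sebaceous gland genes lay in the same direction. Elovl3, an elongase of sebaceous and hair lipids, was at 44.9 CPM in EHP-101 and at 63.0, 82.4 and 72.4 in ajulemic acid. Elovl7, an elongase of long fatty acids, is not on the sebaceous gland list and was named for its small p. It was at 63.5 CPM in EHP-101 and at 95.6, 116 and 102 in ajulemic acid. Elovl4, which makes the very long acids of barrier ceramides, was at 349 CPM in EHP-101 and at 697, 1034 and 474 in ajulemic acid. Scd1, the main sebaceous desaturase, did not separate, at 2218 CPM in EHP-101 inside a range of 1750 to 4821. Of 20 sebaceous gland genes, 14 lay below all 3 ajulemic acid libraries, beside 19.8% of all genes tested. The median was -0.61, and 1 gene was lower at an unadjusted p under 0.05, beside 0.397% of all genes. Ajulemic acid replicate 2 was the highest library for this list, at a median centred log2 CPM of 0.57, and without it the list's median fold change was -0.42.

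Muscle genes were higher in EHP-101. Skin samples from the trunk of mice include the thin panniculus carnosus muscle, and embryonic and perinatal myosins mark fibres that are forming anew. Myh3, the embryonic myosin, was at 156 CPM in EHP-101 and at 63.8, 25.9 and 59.4 in ajulemic acid, with 1.71 in control and 104 in bleomycin. Myh8, the perinatal myosin, was at 114 CPM in EHP-101 and at 49.7, 28.2 and 73.7 in ajulemic acid, with 4.53 in control and 94.2 in bleomycin. Musk, the receptor kinase that builds the nerve-muscle synapse (gene 18198, chromosome 4, 58285962 to 58374303), was at 9.28 CPM in EHP-101 and at 3.95, 2.64 and 3.14, with 0.788 in control and 6.99 in bleomycin. In these 3 genes bleomycin and EHP-101 were the highest libraries and control the lowest. The log2 fold changes of EHP-101 over ajulemic acid were 1.65 (SE 0.49) for Myh3, 1.17 (SE 0.50) for Myh8 and 1.52 (SE 0.32) for Musk.

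Of all genes tested, 45.5% had a positive log2 fold change, 1.97% were higher at an unadjusted p under 0.05 and 18.3% lay above all 3 ajulemic acid libraries. All 28 developing and regenerating muscle genes, a list drawn up after the data were seen, had a positive log2 fold change, with a median of 0.94, 14 at an unadjusted p under 0.05 and 26 above all 3 ajulemic acid libraries. Among them Myog, the transcription factor of muscle differentiation, was at 18.6 CPM in EHP-101 and at 9.34, 5.85 and 12.2, while Myod1, the factor of committed myoblasts, was at 2.38 CPM inside a range of 1.55 to 2.66. Xirp1, a repair protein of the muscle attachment, was at 45.0 CPM in EHP-101 and at 25.9, 27.6 and 25.3. Mature sarcomere genes leaned the same way with wide spread. All 31 skeletal muscle genes tested were above 0 (median log2 fold change 0.53), 22 lay above all 3 ajulemic acid libraries and 3 had an unadjusted p under 0.05. Titin (Ttn) was at 18125 CPM in EHP-101 and at 12376, 17270 and 7131 in ajulemic acid, with 6430 in control. The summed CPM of the skeletal muscle list was 29367 in EHP-101, 29460 in bleomycin, 10574 in control and 19931, 27950 and 12579 in ajulemic acid. Within ajulemic acid the order of the regenerating muscle list depended on the measure. Its summed CPM was 768, 867 and 627 in replicates 1, 2 and 3, the same order as the skeletal muscle list. Its median centred log2 CPM was 0.19, -0.30 and 0.54. That of the skeletal muscle list was -0.008, 0.40 and -0.47, the opposite order. The part of mature muscle RNA in the result was not tested. Without replicate 3 the skeletal muscle median was 0.31 and the regenerating muscle median 1.26.

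Several imprinted genes of growth were higher in EHP-101 beside Nnat. Imprinted genes are expressed from 1 parental copy, and many act in fetal growth and in regenerating tissue. Mest, an imprinted hydrolase that marks expanding fat, was at 22.6 CPM in EHP-101 and at 10.6, 11.2 and 10.6 in ajulemic acid, with 10.4 in control and 17.5 in bleomycin. Peg3, a zinc finger protein of muscle and fat progenitors, was at 56.1 CPM in EHP-101 and at 30.1, 32.1 and 29.2, with 44.2 in control and 35.4 in bleomycin. Igf2, the fetal growth factor, was at 57.0 CPM in EHP-101 and at 20.4, 16.1 and 33.7, with 2.83 in control and 56.2 in bleomycin. The first 2 were highest in EHP-101 among the 6 libraries, while for Igf2 EHP-101 and bleomycin were close.

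Zdbf2, another imprinted gene (gene 73884, chromosome 1, 63273269 to 63314575), lay the other way, at 1.16 CPM in EHP-101 and at 4.30, 5.56 and 7.68 in ajulemic acid, with 1.05 in control and 11.2 in bleomycin. Its log2 fold change was -2.33 (SE 0.49). Of 36 imprinted genes tested out of 40, a list drawn up after the data were seen, 27 were above 0 in log2 fold change (median 0.28, or 0.43 without replicate 3), 10 of them and 1 negative gene at an unadjusted p under 0.05, and 19 lay above all 3 ajulemic acid libraries. Over all genes tested, 45.5% were above 0 and 18.3% above all 3, and 1.97% were higher and 0.397% lower at that p. Gnas (95% interval -0.40 to 0.54) and Igf2r (-0.58 to 0.88) were not separated. Capn6, an X-linked calpain of embryonic muscle without protease activity, was at 12.8 CPM in EHP-101 and at 5.45, 4.53 and 5.39 in ajulemic acid.

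Most endothelial and nerve genes had log2 fold changes above 0. Vwf, the clotting factor of endothelial cells, was at 67.3 CPM in EHP-101 and at 47.9, 41.6 and 35.3 in ajulemic acid, with 30.7 in control and 64.7 in bleomycin. Ptprb, the endothelial phosphatase that restrains the angiopoietin receptor, was at 87.5 CPM in EHP-101 and at 65.0, 55.7 and 49.0. Of 23 endothelial genes, 19 lay above 0, beside 45.5% of all genes tested. The list's median log2 fold change was 0.42, and 0.29 to 0.58 with 1 replicate left out, lowest without replicate 3. Above all 3 ajulemic acid libraries lay 14 of the 23 (18.3% of all genes tested), and 5 had an unadjusted p under 0.05 in that direction (1.97% of all). Of 18 Schwann cell and nerve genes, 13 lay above 0, with a median log2 fold change of 0.43, or 0.28 without ajulemic acid replicate 1. Of the 18, 9 lay above all 3 ajulemic acid libraries and 3 below, beside 18.3% and 19.8% of all genes tested. Mbp, a myelin protein, was at 68.8 CPM in EHP-101 and at 49.2, 59.2 and 43.1 in ajulemic acid, with 98.4 in bleomycin. Fa2h, which hydroxylates the fatty acids of myelin and skin lipids, lay the other way, at 59.9 CPM in EHP-101 and at 137, 211 and 73.4 in ajulemic acid.

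The matrix genes that define the fibrosis model were not separated between the compounds. Col1a1, the main chain of type I collagen (gene 12842, chromosome 11, 94936270 to 94951867), was at 903 CPM in EHP-101 and at 817, 927 and 704 in ajulemic acid, with 1664 in control and 1684 in bleomycin. EHP-101 lay inside the ajulemic acid range, and the log2 fold change was 0.15 (SE 0.24, 95% interval -0.47 to 0.76). Col3a1 was at 1517 CPM in EHP-101 and at 1692, 2030 and 1500, with a 95% interval from -0.88 to 0.48. Postn, a matricellular protein of remodelling dermis, was at 398 CPM in EHP-101 and 399 ± 80.1 (SD, n = 3) in ajulemic acid, with an interval from -0.71 to 0.71. Both collagens were lower in each of the 4 treated libraries than in the control and bleomycin libraries.

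Lox, the enzyme that starts collagen cross-linking, was at 34.8 CPM in EHP-101 and at 44.4, 43.6 and 47.2 in ajulemic acid, with 20.8 in control and 95.9 in bleomycin. Its ajulemic acid values were close together and EHP-101 lay below them, but the 95% interval of the log2 fold change ran from -0.80 to 0.06. Of 11 fibrillar collagens 7 had a positive log2 fold change, beside 45.5% of all genes tested. Their median was 0.15, and the medians were 0.13 over 20 other collagens, -0.12 over 25 matricellular and elastic genes, -0.08 over 19 genes of collagen processing, -0.02 over 22 proteases and inhibitors and 0.02 over 22 genes of the TGF-beta pathway. With any 1 ajulemic acid replicate left out, these 6 medians lay between -0.21 and 0.17. Tgfb1 (95% interval -0.70 to 0.51), the macrophage elastase Mmp12 (-0.49 to 0.99), the protease inhibitor Timp1 (-1.42 to 0.37) and the smooth muscle actin Acta2 (-0.40 to 0.54) gave intervals that span 0. These intervals still allow differences of over 1.5 times in most of these genes, so they do not show that the compounds act alike.

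Cnr1 encodes CB1, the cannabinoid receptor of nerve and fat (gene 12801, chromosome 4, 33924632 to 33948831). It was at 6.71 CPM in EHP-101 and at 4.02, 3.27 and 3.74 in ajulemic acid, with 3.94 in control and 5.07 in bleomycin. Its log2 fold change was 0.87 (SE 0.28), with a 95% interval from 0.15 to 1.59, and it did not pass after adjustment. Cnr2, the CB2 receptor of immune cells, was at 3.05 CPM in EHP-101 and at 4.77, 6.65 and 3.34 in ajulemic acid, with 2.23 in control and 4.30 in bleomycin, and the 95% interval was -1.94 to 0.57. EHP-101 was thus above the range for Cnr1 and just below it for Cnr2. The degrading enzymes Faah, at 50.5 CPM in a range of 46.1 to 65.7, and Mgll, at 206 CPM in a range of 204 to 456, lay inside. Of 17 genes of the cannabinoid system tested, 5 were above 0, beside 45.5% of all genes tested. The median log2 fold change was -0.09, and -0.14 to -0.06 with 1 replicate left out. Cnr1 alone had an unadjusted p under 0.05, beside 1.97% of all genes higher at that p.

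The prostaglandin and lipoxygenase list had mostly negative log2 fold changes, with 27 of 31 genes negative, a median of -0.26, 10 below all 3 ajulemic acid libraries and 0 at an unadjusted p under 0.05 (54.5% of all genes tested were negative and 19.8% below all 3). Ptgs2, the inducible cyclooxygenase, was at 5.13 CPM in EHP-101 and 7.57 ± 1.81 (SD, n = 3) in ajulemic acid, whose 3 values were all higher. Alox15, a lipoxygenase of macrophages and eosinophils, was at 1.22 CPM in EHP-101 and at 1.91, 4.01 and 3.09. Ptgds, a prostaglandin D synthase, was at 12.7 CPM, inside an ajulemic acid range of 2.58 to 27.1. Without replicate 2 the list's median was -0.12.

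Targets of HIF, the pathway that VCE-004.8 is also described to act on, had a median log2 fold change near 0. Vegfa, the vessel growth factor, was at 47.0 CPM in EHP-101 and at 45.3, 42.0 and 37.7 in ajulemic acid, with a 95% interval of the log2 fold change from -0.30 to 0.64. Egln3, a prolyl hydroxylase induced by HIF, was at 38.7 CPM, inside the ajulemic acid range of 38.6 to 54.6, and Hif1a at 136 CPM inside 132 to 157. Of 36 HIF targets 14 had a positive log2 fold change, beside 45.5% of all genes tested. Their median was -0.09 (-0.14 to -0.05 with 1 replicate left out), with 0 at an unadjusted p under 0.05. Of the 36, 7 lay above all 3 ajulemic acid libraries and 11 below, beside 18.3% and 19.8% of all genes tested. Among 28 NRF2 targets, the genes of the oxidative stress response, 22 were negative (54.5% of all genes tested were negative), with a median of -0.16. Hmox1, the haem oxygenase, was at 45.0 CPM in EHP-101 and at 59.9, 49.5 and 49.0 in ajulemic acid, and Nqo1 was inside the ajulemic acid range (95% interval -0.76 to 0.58).

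**Figure D5:**
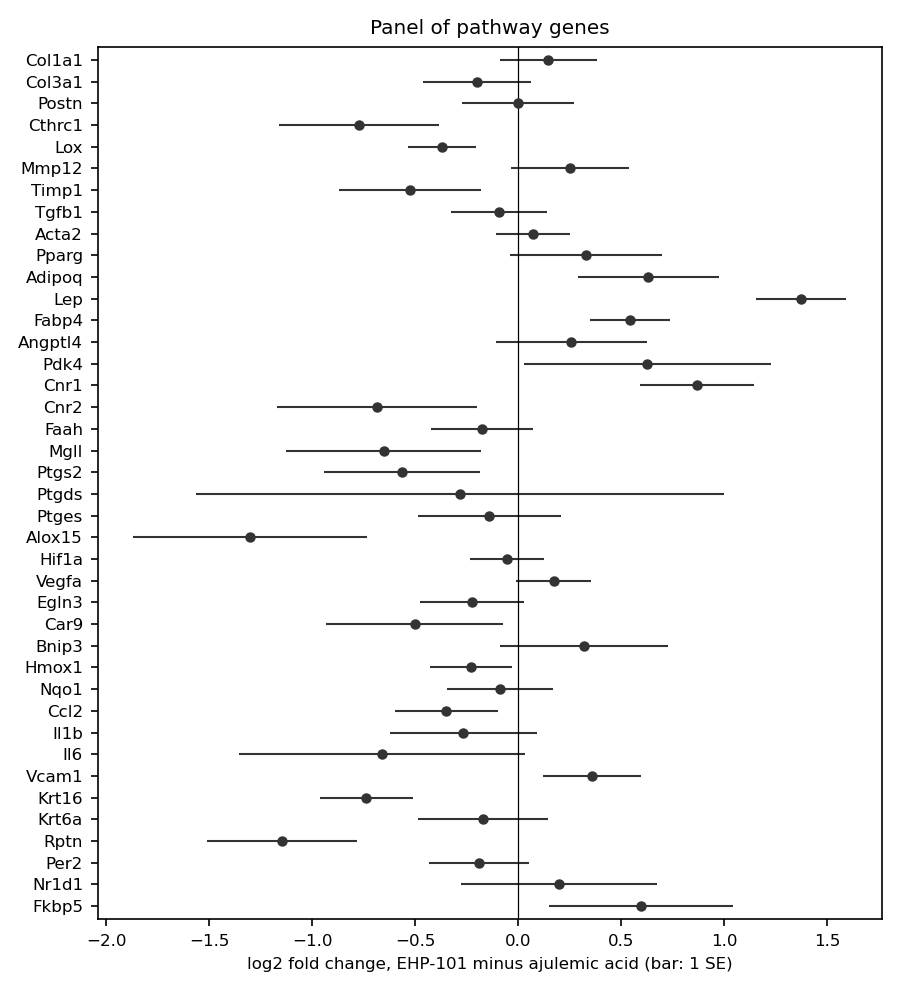
Log2 fold change of EHP-101 over ajulemic acid (horizontal axis, bar 1 SE) for 40 genes of matrix, PPAR, cannabinoid, prostaglandin, HIF, oxidative stress, inflammation and epidermis. Col1a1, Postn, Tgfb1, Hif1a and Nqo1 lie near 0, Cnr1 at 0.87 lies to the right and Rptn, at -1.14, to the left.

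Most immune genes had small negative log2 fold changes. Of 33 cytokine and chemokine genes tested out of 41, 30 had a negative log2 fold change (median -0.21) and 9 lay below all 3 ajulemic acid libraries, beside 54.5% and 19.8% of all genes tested. The 1 of them with an unadjusted p under 0.05 was higher: Cxcl10, an interferon-induced chemokine, was at 4.70 CPM in EHP-101 and at 2.80, 2.47 and 2.44 in ajulemic acid. This median was -0.13 without replicate 2 and -0.40 without replicate 3. Of 24 macrophage genes, 21 were negative (median -0.30, or -0.19 without replicate 2) and 13 lay below all 3. Lyz2, the lysozyme of macrophages and neutrophils, was at 250 CPM in EHP-101 and at 289, 312 and 273, and Lgals3, galectin-3 of macrophages and epidermis, at 287 CPM and at 400, 337 and 375. Ccl2, the monocyte chemokine, was at 9.46 CPM in EHP-101 and at 10.6, 12.2 and 13.3, with 3.22 in control and 13.9 in bleomycin. Its log2 fold change was -0.35 (SE 0.25).

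For lymphocytes and antigen presentation the difference rested on ajulemic acid replicate 2, the highest library for these lists among the treated ones. The median of 28 T and NK cell genes was -0.42, and -0.03 without that replicate, and that of 17 MHC class II and dendritic genes was -0.41, and -0.12 without it. Cd74, the invariant chain of MHC class II, was at 220 CPM in EHP-101 and at 311, 404 and 162 in ajulemic acid. The adhesion molecule Vcam1, induced on inflamed vessels, was at 14.0 CPM in EHP-101 and at 11.9, 11.6 and 9.38, above the ajulemic acid range, with a 95% interval from -0.26 to 0.98. Hair genes varied too widely within ajulemic acid to be compared. Tchh, trichohyalin of the inner root sheath, ran from 205 to 11651 CPM within ajulemic acid with EHP-101 at 4764, and the list's median of -0.35 was 0.55 without replicate 3.

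The neighbouring genes Gba2 and Rgp1 were both lower in EHP-101. Gba2, a glucosylceramidase outside the lysosome (gene 230101, chromosome 4, 43566928 to 43578864), was at 20.3 CPM in EHP-101 and at 51.1, 38.6 and 44.2 in ajulemic acid, with 40.6 in control and 51.3 in bleomycin. Rgp1, part of an exchange factor for a Golgi GTPase (gene 242406, chromosome 4, 43578735 to 43587487), was at 29.3 CPM in EHP-101 and at 58.8, 49.5 and 61.1, with 53.02 in control and 55.3 in bleomycin. EHP-101 stood alone as the low library in both. They lie on opposite strands and overlap by 130 bases, so without a stated strand setting reads in the overlap cannot be assigned to one of them.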

How the data were processed

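Total RNA of frozen skin was sequenced as ribosomal RNA-depleted stranded libraries from 300 ng of RNA, single-end reads of 50 bp, per the labels' protocols. The authors deposited raw counts per gene with NCBI gene numbers. The submitters' processing notes name the mm10 build, featureCounts 1.6.1 for counting after HISAT2 2.1.0, Trimmomatic 0.36, and DESeq2 1.20.0. How strand and multi-mapping reads were handled is not stated in those sources, which leaves gene families (Sprr, Lce, Serpina1, keratins) uncertain. The table held 27179 genes, of which 25275 matched a symbol. A merged table held the same counts (0 differing values) and 6 other sample columns, 2 of them named for EHP-101, which the series description assigns to another series, and these were not used.

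All 6 libraries were fitted together with edgeR 4.0.16 (R 4.3.3): filterByExpr (minimum count 10), TMM, robust quasi-likelihood F-tests, two-sided, Benjamini-Hochberg adjustment over 17377 genes, threshold 0.05. The 2 residual degrees of freedom came from ajulemic acid alone, so the single EHP-101 library was assumed to vary like them; the common biological coefficient of variation was 0.267. Intervals are 95% intervals of that fit. CPM used TMM-scaled totals, and centred log2 CPM a prior count of 3. Pairs of ajulemic acid libraries differed beyond counting noise (chi-square per degree of freedom at least 37.3), and each entered as a separate library; this does not show that they came from different animals.

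Named genes were the 10 of smallest p in each direction with a symbol and a mean log2 CPM of at least 2, a panel of 41 genes, and for a list described up to 4 of its highest genes and, where its median reached 0.5 in size, its 2 of smallest p; others named for their role were chosen after their values were seen. The comparison, the 48 lists and the panel were chosen with earlier results of these data known, and 3 more lists (cholesterol synthesis, imprinted genes, developing and regenerating muscle) were added once the data had been seen; no list was tested. A few genes that this rule selects are not reported here. Of 1217 listed genes, 19 matched no symbol. On simulated counts of 17377 genes for EHP-101 minus ajulemic acid, 100 genes were changed 4-fold and 100 were changed 16-fold: edgeR found 76 and 97 and called 35 unchanged genes, and DESeq2 1.42.0 found 86 and 99 and called 70. The changed genes were drawn from those of higher count, and the others had the same expected share in every library. Scatter was drawn from the spread fitted to each gene, so these rates need not hold for genes of low count or for the measured data. Alternatives were DESeq2, limma 3.58.1 (limma-trend), 3 other scalings, no filter, the 4 treated libraries alone, no robust option, tissue genes left out of the scaling, and each ajulemic acid library left out.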

Additional observations from a re-analysis of the deposited data

How the results depend on the processing

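The count of genes passing adjustment depended on the test and on single libraries. By DESeq2, 63 genes passed as higher in EHP-101 and 1 as lower, and no filter on low counts gave 16 higher, where the main test gave 0 and 0. Leaving out 1 ajulemic acid library gave 0 to 65 genes higher and 0 to 2 lower, with 18 higher without replicate 2, and 65 higher and 2 lower (Sfrp4 and Scd3) without replicate 3. All 16, all 18 and 57 of the 65 had control and bleomycin at over 2 times the highest ajulemic acid library, beside 1.44% of all genes tested. The choice by p against the same ajulemic acid libraries favours this. limma, the other scalings, the 4 treated libraries alone, no robust option and tissue genes left out of the scaling gave 0 in each direction. At an unadjusted p under 0.05, the 343 higher genes were 213 by DESeq2, 192 without replicate 1 and 619 without replicate 2, and the 69 lower genes were 37 with library totals only, 105 with no filter, 14 without replicate 1, 219 without replicate 2 and 430 without replicate 3. The cause was not tested.

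The median of fibrillar collagens was 0.25 with library totals only, that of keratinocyte activation -0.85 with the 4 treated libraries alone and -1.14 to -1.01 with 1 replicate left out, and that of hepatocytes 3.43 to 4.47 with 1 replicate left out. Of 720 recomputed values over 60 genes, 696 kept their direction and side of the threshold, 8 passed it and 16 changed sign, each of these in a gene near 0 or widely spread. The log2 fold change of Postn was 0.0031 by DESeq2 and by relative log expression scaling, 0.0178 by limma, 0.0342 with upper-quartile scaling, 0.102 with library totals, 0.0078 with the 4 treated libraries, 0.0132 with tissue genes left out, and -0.13 to 0.18 with 1 replicate left out. With library totals Tgfb1 was 0.0053, Hif1a 0.0387 and Nqo1 0.0091, and Ptgds was 0.25 by limma. With 1 replicate left out Tgfb1 ran from -0.18 to 0.0098, Ptgds from -0.76 to 0.42, Hif1a from -0.10 to 0.0271 and Nr1d1 from -0.0621 to 0.57. No paired analysis was possible because the EHP-101 and ajulemic acid groups share only replicate number 3. EHP-101 had 1 library and no replicate spread of its own.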

Other observations

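Of 21 genes of the glucocorticoid response, 16 had a positive log2 fold change (median 0.36), beside 45.5% of all genes tested. Above all 3 ajulemic acid libraries lay 11 of them (18.3% of all genes tested). Among these was Fkbp5, a chaperone induced by steroid hormones. It was at 54.1 CPM in EHP-101 and at 49.1, 36.7 and 21.6 in ajulemic acid, with 107 in bleomycin and 25.2 in control. Tsc22d3, another steroid-induced gene, was at 103 CPM, inside the ajulemic acid range of 69.3 to 145. The p53 and DNA damage list had a median of 0.02 over 25 genes (-0.04 to 0.06 with 1 replicate left out), and Cdkn1a, the cell cycle inhibitor that p53 induces, was at 122 CPM in EHP-101 and at 150, 86.4 and 141. The 23 immediate early genes had a median of 0.04. Fos was at 213 CPM in EHP-101 and at 204, 129 and 224 in ajulemic acid, with 18.8 in control and 83.8 in bleomycin, and Egr1 at 189 CPM and at 160, 121 and 208, with 81.1 in control and 81.4 in bleomycin. For Fos and Egr1 the 4 treated libraries were above both others. The clock gene Per2 showed the same order, at 20.4 CPM in EHP-101 and at 25.6, 24.8 and 19.6 in ajulemic acid, with 6.70 in control and 8.28 in bleomycin.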
